A study of Mus musculus with 8 samples.

Results

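Synaptic and axonal adhesion genes of 4 families were followed from young adult to aged mouse brain: the neurexins Nrxn2 and Nrxn3, the neuroligins Nlgn1, Nlgn2 and Nlgn3, the contactin-associated proteins Cntnap1 and Cntnap2, and the neural cell adhesion molecules Ncam1 and Ncam2. They were taken by gene symbol from a fixed list with no threshold on measured values, although earlier results of these data were known when the list was made. All 9 were among the 22430 genes listed, and all 9 had enough counts to be among the 16730 genes tested. The study sequenced polyadenylated RNA of brain hemispheres from 8 male C57Bl/6JRj mice, 4 aged 6 months (6m) and 4 aged 24 months (24m), with 1 library from each animal. All animals were male and no treatment or altered allele was named for either age. The labels call the tissue whole brain, so the RNA of all regions and cell types of a hemisphere was pooled in each library.

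Neurexins are presynaptic membrane proteins that bind neuroligins on the postsynaptic side, and this pairing across the cleft helps to specify and stabilise synapses. Neuroligin 1 is found mainly at excitatory synapses, neuroligin 2 at inhibitory synapses and neuroligin 3 at both. The contactin-associated proteins share domains with neurexins but act along the axon: the product of Cntnap1 holds the paranodal junction beside the node of Ranvier, and that of Cntnap2 gathers potassium channels next to it. The Ncam proteins are immunoglobulin adhesion molecules, and Ncam1 is the main carrier of polysialic acid in the brain.

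The ends of the coding sequences are shown for the neuroligins and neurexins because members of a family share much of their protein but differ, over the whole coding sequence, in how many of their codons end in G or C, and base composition was a feature with which single libraries varied. Each run is the last 60 coding bases of the canonical transcript, 5′ to 3′ on the strand of the gene, read from GRCm39. Capitals mark a G or C at the third position of a codon.
Nlgn1: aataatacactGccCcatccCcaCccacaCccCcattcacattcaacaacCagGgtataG
Nlgn2: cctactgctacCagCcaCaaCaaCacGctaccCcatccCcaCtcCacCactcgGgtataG
Nlgn3: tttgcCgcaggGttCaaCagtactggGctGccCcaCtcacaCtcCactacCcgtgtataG
Nrxn2: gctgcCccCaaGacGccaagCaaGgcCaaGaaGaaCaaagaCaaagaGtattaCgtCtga
Nrxn3: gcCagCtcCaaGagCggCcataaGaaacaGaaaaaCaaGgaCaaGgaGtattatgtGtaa

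The neuroligin ends lay at chr3:25487802-25487861 (minus strand, exon 8 of 8) for Nlgn1, chr11:69716029-69716088 (minus strand, exon 8 of 8) for Nlgn2 and chrX:100363809-100363868 (plus strand, exon 8 of 8) for Nlgn3. The neurexin ends lay at chr19:6582119-6582178 (plus strand, exon 23 of 23) for Nrxn2 and chr12:90299125-90299184 (plus strand, exon 20 of 20) for Nrxn3. Compared base by base without gaps, the Nlgn1 and Nlgn2 ends shared 35 of 60 bases, with 25 of the 40 first and second codon positions but 10 of the 20 at the third. Nrxn2 and Nrxn3 shared 38 of 60 bases, again with 10 of 20 at the third position and 28 of 40 at the others. Of the 20 codons shown, 9 ended in G or C in Nlgn1, 13 in Nlgn2 and 12 in Nlgn3, whereas the neurexin ends did not differ in this count, with 14 in Nrxn2 and 14 in Nrxn3. Over whole coding sequences 43.5% of codons ended in G or C in Nlgn1, 63.1% in Nlgn3, 73.7% in Nlgn2, 63.04% in Nrxn3 and 77.2% in Nrxn2, against a median of 61.4% over 16527 genes. Nlgn1 and Ncam2 (44.4%) were thus poor in such codons, and Nrxn2 was rich in them.

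Promoter windows were available for 5 of the 9 genes. They are given for Nlgn2 and Ncam2, which both rose with age and stand at opposite ends of the 9 genes in exonic GC content. Each window runs from 250 bases before to 50 bases after the annotated start in RefSeq, build GRCm38.p6, with CpG dinucleotides in capitals. The Nlgn2 window lies at chr11:69837735-69838034 (minus strand) and the Ncam2 window at chr16:81200447-81200746 (plus strand).
Nlgn2: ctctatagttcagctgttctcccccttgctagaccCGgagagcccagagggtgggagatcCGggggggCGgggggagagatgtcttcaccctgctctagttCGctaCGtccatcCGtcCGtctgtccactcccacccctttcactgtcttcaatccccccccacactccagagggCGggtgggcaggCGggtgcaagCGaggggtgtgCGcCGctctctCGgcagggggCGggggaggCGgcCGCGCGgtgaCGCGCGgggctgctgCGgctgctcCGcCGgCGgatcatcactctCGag
Ncam2: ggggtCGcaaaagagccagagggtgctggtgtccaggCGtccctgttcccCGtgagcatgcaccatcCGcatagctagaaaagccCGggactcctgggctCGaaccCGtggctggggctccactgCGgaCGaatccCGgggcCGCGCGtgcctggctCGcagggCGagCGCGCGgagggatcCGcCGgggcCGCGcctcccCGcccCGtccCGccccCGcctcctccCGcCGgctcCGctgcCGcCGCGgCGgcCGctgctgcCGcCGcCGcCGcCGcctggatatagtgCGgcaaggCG

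The Nlgn2 window held 26 CpG and the Ncam2 window 41, both above the median of 7 in the 32851 windows of the table. The letters GGGCGG (a GC box), searched on both strands, occurred 3 times in the Nlgn2 window and 2 times in the Ncam2 window, and at least once in 35.7% of all windows. Neither window held TATAAA, which occurred in 13.6% of all windows, or TGACGTCA (the cyclic AMP response element), which occurred in 1.79%. Ncam2 thus joined a promoter rich in CpG to exons that are poor in GC. These matches describe the letters of the window only, and the counts here do not measure binding.

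Library totals ran from 63460940 to 103462414 counts, with 24m replicate 1 the deepest. Values are given as CPM, counts scaled to the size of the library, which TMM factors (trimmed mean of M values) corrected for composition. Calls rest on edgeR's quasi-likelihood test and need both an adjusted p (Benjamini-Hochberg) of 0.05 or less and a fold of at least 0.58 in either direction on the log2 scale. Replicate 1 of 24m was the lowest aged library for all 9 genes, by a small margin in Nrxn2 and a wide one in Nrxn3, Nlgn1, Ncam1 and Ncam2, so results that rest on it are given with and without it. Neuron markers were present in every library, with a summed level of 6088 to 6503 CPM over 10 genes at 6m and 6147 to 6746 CPM at 24m. The summed ranges overlapped between ages, but 2 of the 10 markers were called higher, 1 lower and 7 neither, from a log2 fold change of -0.63 in Tubb3 to 3.09 in Map2. Without 24m replicate 1 the counts were 3 higher and 2 lower.

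Of the 9 genes, 6 were called higher at 24m and 0 were called lower, while 25.3% of all tested genes were called higher and 18.3% lower. The genes called were Nlgn1, Nlgn2, Nlgn3, Cntnap1, Cntnap2 and Ncam2, so the set held all 3 neuroligins and both contactin-associated proteins. Past the adjusted p alone there were 7, Nrxn2 joining the others, beside 32.7% of all tested genes. In 7 genes the 4 aged libraries all lay above the 4 young ones, which held for 28.4% of all tested genes. The median log2 fold change was 0.94 over the 9 genes and -0.0034 over all genes tested. In RNA of whole hemispheres, more cells of a type and more RNA per cell cannot be told apart, and this holds for each value below.

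**Figure D1:**
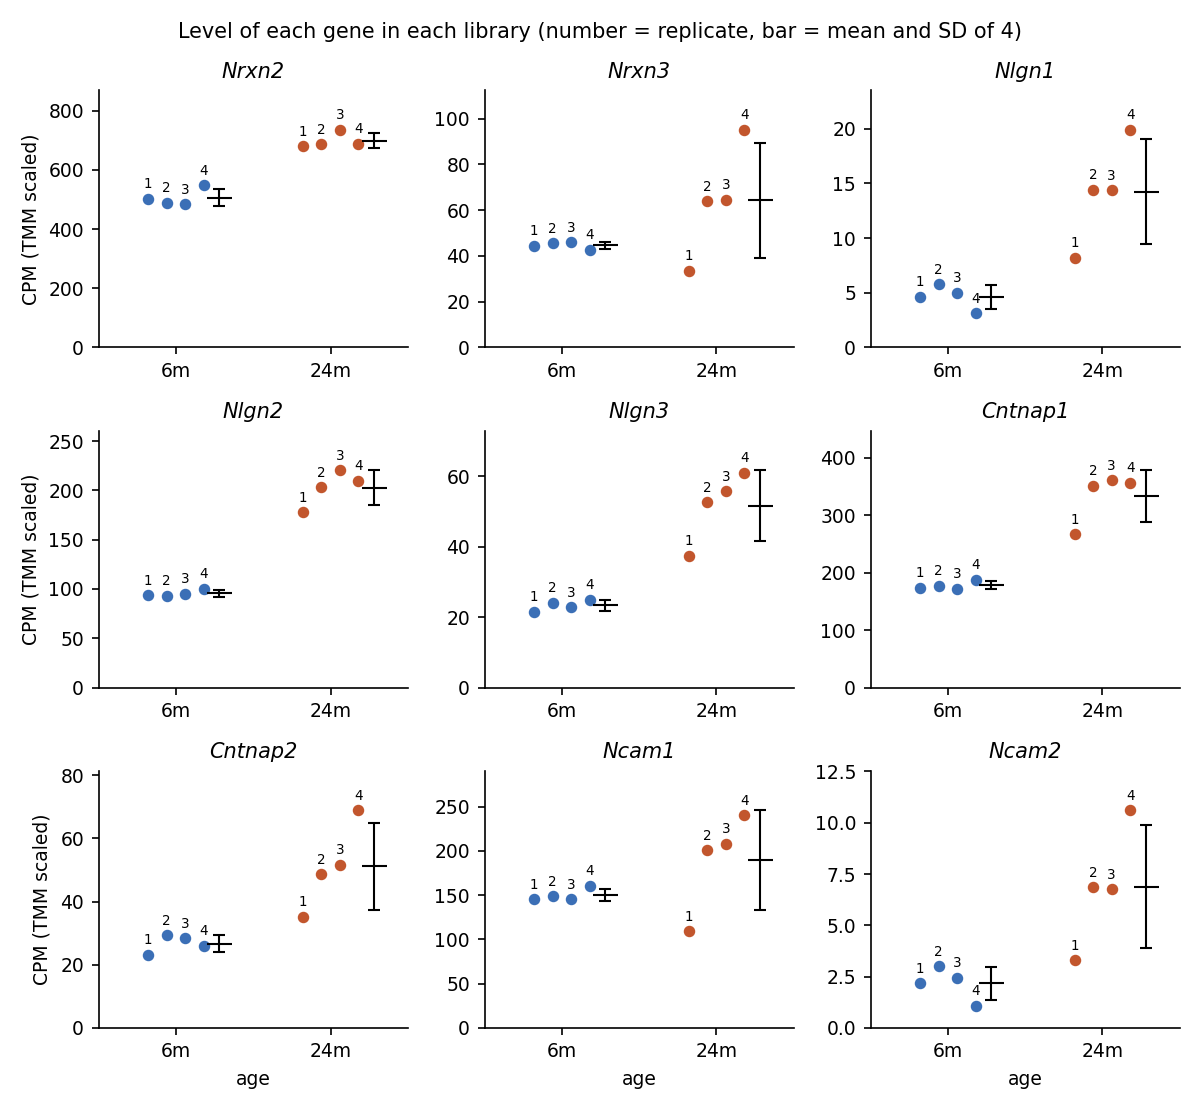
Level of each of the 9 genes in CPM (linear axis from 0) in the 4 libraries of 6m (blue) and the 4 of 24m (orange), with the replicate number above each point and the mean and SD of 4 beside them. Replicate 1 is the lowest 24m library in every panel, and in Nrxn3 and Ncam1 it lies under all 6m libraries.

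Among the neurexins, Nrxn2 (GRCm39 chr19:6468761-6594199, plus strand) was measured at 503, 489, 484 and 549 CPM in the young libraries, replicates 1 to 4, and at 680.3, 687, 736 and 688 CPM in the aged ones, in the same order as everywhere below. The ages did not overlap, and the 24m libraries were about as close to each other as those of 6m (SD 25.5 and 29.3 CPM). The aged level was 1.38-fold that of 6m, or 0.46 ± 0.079 on the log2 scale (SE, n = 4 per age), with an adjusted p of 0.000853 by edgeR's quasi-likelihood test. The difference was larger than the replicate error but smaller than the fold threshold. After removal of a trend over gene span, described later, it was -0.046, whereas the GC offset (0.66), library totals alone (0.68) and quantile normalization with DESeq2 (0.82) brought it past that threshold.

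Nrxn3 (chr12:88689646-90301709, plus strand) stood at 44.4, 45.5, 46.0 and 42.7 CPM in the young libraries and at 33.5, 63.9, 64.6 and 95.2 CPM in the aged ones. Its young libraries agreed within 3.24% (coefficient of variation), whereas the aged libraries varied by 39.1% and ran from below to well above the young range. The log2 fold change of 0.53 ± 0.25 did not pass (edgeR adjusted p = 0.0869). Without 24m replicate 1 it was 0.76 ± 0.13 with an adjusted p of 0.000343, and the gene was then called higher. Without 24m replicate 4, the highest aged library, it was 0.28. After removal of the span trend the direction turned, to -0.47 (edgeR adjusted p = 0.00189).

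Nlgn2 (chr11:69713948-69728613, minus strand), the neuroligin of inhibitory synapses, was the most even of the 3. It was at 93.4, 93.3, 95.1 and 100.4 CPM in 6m and at 178, 203, 220.2 and 209.8 CPM in 24m. The lowest aged library lay far above the highest young one. The rise was 2.12-fold, with a log2 fold change of 1.08 ± 0.084 (n = 4 per age) and an adjusted p of 2.42e-05 by edgeR's quasi-likelihood test.

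Nlgn3 (chrX:100342750-100369570, plus strand) was at 21.6, 24.2, 22.8 and 25.0 CPM in 6m and at 37.5, 52.6, 55.7 and 61.1 CPM in 24m. The ages did not overlap, and 24m replicate 1 was the aged library nearest to the young ones. The rise was 2.21-fold, with a log2 fold change of 1.15 ± 0.14 and an edgeR adjusted p of 0.000179.

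Nlgn1 (chr3:25480379-26386609, minus strand), the neuroligin of excitatory synapses, was the least abundant of the 3. The young libraries had 4.65, 5.76, 4.99 and 3.13 CPM (207 to 407 counts) and the aged ones 8.21, 14.4, 14.4 and 19.9 CPM (851 to 1737 counts). The ages did not overlap, but Nlgn1 varied more between animals than Nlgn2, by 23.8% at 6m and 33.6% at 24m against 3.47% and 8.90%. Its rise was 3.07-fold, or 1.62 ± 0.27 on the log2 scale (edgeR adjusted p = 0.000745), and 0.74 after removal of the span trend, where it was still called.

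Cntnap1 (chr11:101061349-101082747, plus strand), the paranodal member, was at 174, 178, 172 and 188 CPM in 6m and at 267, 351, 361 and 357 CPM in 24m. The last 3 aged libraries lay close together, and 24m replicate 1 lay below them but above every young library. The log2 fold change was 0.91 ± 0.11 (1.88-fold, edgeR adjusted p = 0.000129). Without that replicate it was 1.02 ± 0.058.

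Cntnap2 (chr6:45036291-47281147, plus strand), the juxtaparanodal member, was at 23.1, 29.3, 28.3 and 26.1 CPM in 6m and at 35.3, 48.7, 51.7 and 69.0 CPM in 24m. The ages did not overlap. The log2 fold change was 0.94 ± 0.18 (1.92-fold, edgeR adjusted p = 0.00163), close to that of Cntnap1 and less precise. This call was lost when a trend over exonic length (0.52) or gene span (-0.047) was removed.

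Of the Ncam genes, Ncam1 (chr9:49413436-49710357, minus strand) was at 146, 149, 145 and 160.5 CPM in 6m and at 109, 201, 208 and 241 CPM in 24m. The aged libraries lay above all young ones except 24m replicate 1, which lay below them all, so the ages overlapped. The log2 fold change of 0.34 ± 0.20 did not pass (edgeR adjusted p = 0.161). Without that library it was 0.55 ± 0.075 with an adjusted p of 7.27e-05, which is still under the fold threshold. Without 24m replicate 4 it was 0.21, and after removal of the span trend it was -0.39 (edgeR adjusted p = 0.0144).

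Ncam2 (chr16:80997585-81425532, plus strand), known for its role in olfactory axons, was the least abundant of the 9. It was at 2.16, 3.01, 2.44 and 1.07 CPM in 6m (71 to 213 counts) and at 3.29, 6.85, 6.76 and 10.6 CPM in 24m (341 to 926 counts). The highest young library was only just below the lowest aged one, and the spread was the widest of the 9 genes at 6m (37.4%) and at 24m (43.5%). The rise was 3.16-fold, or 1.66 ± 0.38 on the log2 scale (edgeR adjusted p = 0.00377). Removal of the span trend left 0.88, still called higher.

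**Figure D2:**
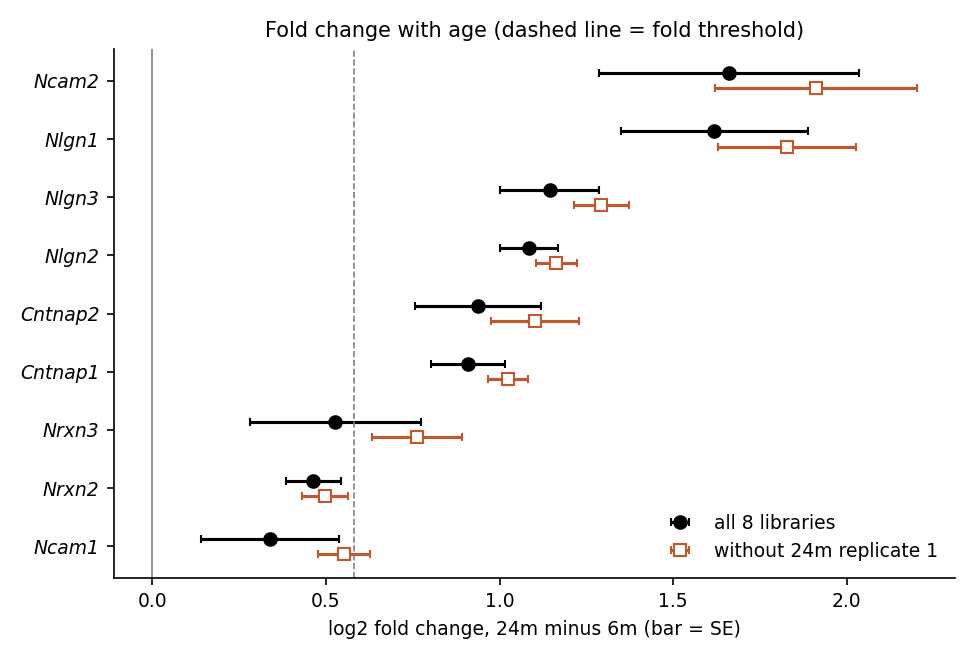
Log2 fold change of each gene, 24m minus 6m, with its standard error from edgeR, over all 8 libraries (black circles) and without 24m replicate 1 (open squares). All 9 values are above 0, and leaving out that library raised each of them, from 0.53 to 0.76 in Nrxn3 and from 0.34 to 0.55 in Ncam1.

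Leaving out 24m replicate 1 raised the number of genes called higher from 6 to 7, the added gene being Nrxn3, while 28.2% of the 16592 genes tested were called higher. The 6 genes called over all libraries were called again, with log2 fold changes of 1.02 (Cntnap1) to 1.91 (Ncam2).

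The 9 genes together took 0.0926%, 0.0973%, 0.0952% and 0.0972% of all counts in the young libraries and 0.135%, 0.179%, 0.187% and 0.198% in the aged ones. Every aged library was above every young one, and the means of 0.0956 ± 0.0022% and 0.175 ± 0.027% (SD, n = 4 per age) differed with an exact permutation p of 0.0286, two-sided, the smallest that 4 against 4 allows. Nrxn2 supplied 49.1% of these counts at 6m and 43.6% at 24m, so it weighs most in the sum. Cntnap1 supplied 17.3% and 20.6%, Ncam1 14.6% and 11.6%, and Nlgn2 9.26% and 12.6%. The share of all counts rests on library totals without TMM factors. With totals scaled by these factors its means were 0.103 ± 0.0043% at 6m and 0.161 ± 0.018% at 24m (SD). The difference was then smaller, 0.0581 against 0.0792 percentage points (exact permutation p = 0.0286, two-sided).

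Levels were compared between genes per length of exon, as TPM, which scales counts per base of exon (union of exons) to a fixed total in each library. TPM carries no TMM correction, so these values order genes within an age. The change with age is read from the CPM folds above, not from TPM. At 6m the order was Nrxn2 (103.4 ± 4.10 TPM), Cntnap1 (68.7 ± 2.96), Ncam1 (48.1 ± 2.24), Nlgn2 (43.8 ± 1.66), Nrxn3 (9.95 ± 0.67), Cntnap2 (7.36 ± 1.02), Nlgn3 (7.11 ± 0.57), Nlgn1 (0.932 ± 0.249) and Ncam2 (0.471 ± 0.189), each as mean and SD of 4 libraries. Neighbours in this order did not overlap, except Cntnap2 with Nlgn3 and Nlgn1 with Ncam2. At 24m Nrxn2 (206 ± 25.5 TPM) and Cntnap1 (188 ± 42.3) still led, followed by Nlgn2 (135 ± 24.7), Ncam1 (90.0 ± 33.9), Nlgn3 (23.0 ± 6.63), Nrxn3 (21.3 ± 10.1), Cntnap2 (20.7 ± 7.58), Nlgn1 (4.22 ± 1.78) and Ncam2 (2.20 ± 1.14). The ranges of most neighbours overlapped at 24m, but both genes of a pair were read in the same libraries. Within libraries Nlgn2 was below Ncam1 in 4 of 4 at 6m and above it in 4 of 4 at 24m, and Nrxn2 was above Cntnap1 in 4 of 4 at both ages. Nlgn3 was below Nrxn3 in 4 of 4 young libraries and above it in 3 of 4 aged ones, and it was above Cntnap2 in 2 of 4 and 3 of 4. The neighbours whose ranges stayed apart in the aged brain were Ncam1 from Nlgn3 and Cntnap2 from Nlgn1, so a higher group of 4 genes and a middle group of 3 genes could be told apart.

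Ratios of counts within a family, taken inside each library, do not depend on scaling between libraries. Counts of Ncam2 were 1.49%, 2.03%, 1.68% and 0.669% of those of Ncam1 in 6m and 3.01%, 3.41%, 3.24% and 4.41% in 24m. All 4 aged libraries were above all young ones, and the log2 ratio rose by 1.36 (exact permutation p = 0.0286, two-sided, 0.171 after Benjamini-Hochberg adjustment over the 6 ratios). The adjusted value did not pass, but with 4 libraries per age a raw p at its lowest in only 1 of 6 ratios cannot pass this adjustment, whatever its size. Without 6m replicate 4, the lowest young library in this ratio, the log2 difference was 1.02.

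The neuroligin ratios showed smaller differences. Counts of Nlgn1 were 21.5%, 23.8%, 21.9% and 12.5% of those of Nlgn3 in 6m and 21.9%, 27.4%, 25.8% and 32.6% in 24m, a log2 difference of 0.46 (exact permutation p = 0.0571, adjusted 0.171). Relative to Nlgn2, Nlgn1 differed by 0.50 (exact permutation p = 0.171, adjusted 0.343) and Nlgn3 by 0.043 (exact permutation p = 0.657, adjusted 0.926). Without 6m replicate 4 the difference of Nlgn1 was 0.25 relative to Nlgn3 and 0.30 relative to Nlgn2, and without 24m replicate 4 the latter was 0.34. Nlgn3 was thus 23.1% to 25.9% of Nlgn2 at 6m and 21.1% to 29.1% at 24m, a range that holds the young values.

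Cntnap2 kept 13.3% to 16.5% of the counts of Cntnap1 at 6m and 13.2% to 19.3% at 24m, with a log2 difference of 0.0051 (exact permutation p = 1, two-sided). Nrxn3 was 7.79% to 9.49% of Nrxn2 at 6m and 4.93% to 13.8% at 24m, a log2 difference of -0.031 (exact permutation p = 0.771, adjusted 0.926). The aged range lay on both sides of the young one in the neurexin pair. These p-values do not show that the ratios are equal, and the smallest p this design allows is 0.0286.

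All 9 are annotated as protein coding, and they differ widely in structure. In genomic span they ran from 14.7 kb (Nlgn2), 21.4 kb (Cntnap1) and 26.8 kb (Nlgn3) to 906 kb (Nlgn1), 1612 kb (Nrxn3) and 2245 kb (Cntnap2), where the median of tested genes is 25.0 kb. Nrxn3 was longer than 99.9% of tested genes, and Cntnap2 was longer still. Exonic GC content ran from 34.0% (Ncam2) and 39.2% (Nlgn1) to 58.6% (Nrxn2) and 59.2% (Nlgn2), around a median of 49.3%. Exonic length was above the median of 5768 bases in all 9, from 6162 bases (Nlgn2) to 14109 bases (Nlgn1). Exonic bases were shared with genes of the other strand in Nrxn2 and Cntnap1 (2 genes each) and in Nrxn3, Nlgn1 and Ncam1 (1 each), and reads there cannot be assigned without knowing whether strand was used in counting.

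The deviation of single libraries moved with base composition, with genomic span and with exonic length. In 24m replicate 1 the log2 level against the mean of the other 3 aged libraries was -0.048 in Nrxn2, -0.25 in Nlgn2 and -0.42 in Cntnap1, all rich in GC, but -0.96 in Nlgn1, -1.13 in Nrxn3 and -1.26 in Ncam2. Near the median GC content, Ncam1 (49.1%) was at -0.98 and Nlgn3 (49.6%) at -0.59, so the order by GC was not strict. In 24m replicate 4 the order was turned, from -0.027 in Nrxn2 and 0.072 in Nlgn2 to 0.74 in Nlgn1 and 0.99 in Ncam2. In 6m replicate 4 the low values were again those of Nlgn1 (-0.70) and Ncam2 (-1.21). Over the 9 genes Spearman's rho of this deviation with GC content was 0.85 in 24m replicate 1, -0.93 in 24m replicate 4 and 0.77 in 6m replicate 4, as a description of 9 points that share each library. Over 16677 genes the corresponding values were 0.38, -0.46 and 0.49, so the same direction ran through the whole table. Genomic span gave rho of -0.65, 0.75 and -0.55 in these libraries over the 9 genes and -0.49, 0.48 and -0.29 over 16677 genes, in 24m replicates 1 and 4 a relation at least as strong over the whole table as that of GC content. Exonic length gave -0.30, 0.43 and -0.33 over the 9 genes and -0.48, 0.45 and -0.27 over 16677 genes. What made these libraries differ was not tested.

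**Figure D3:**
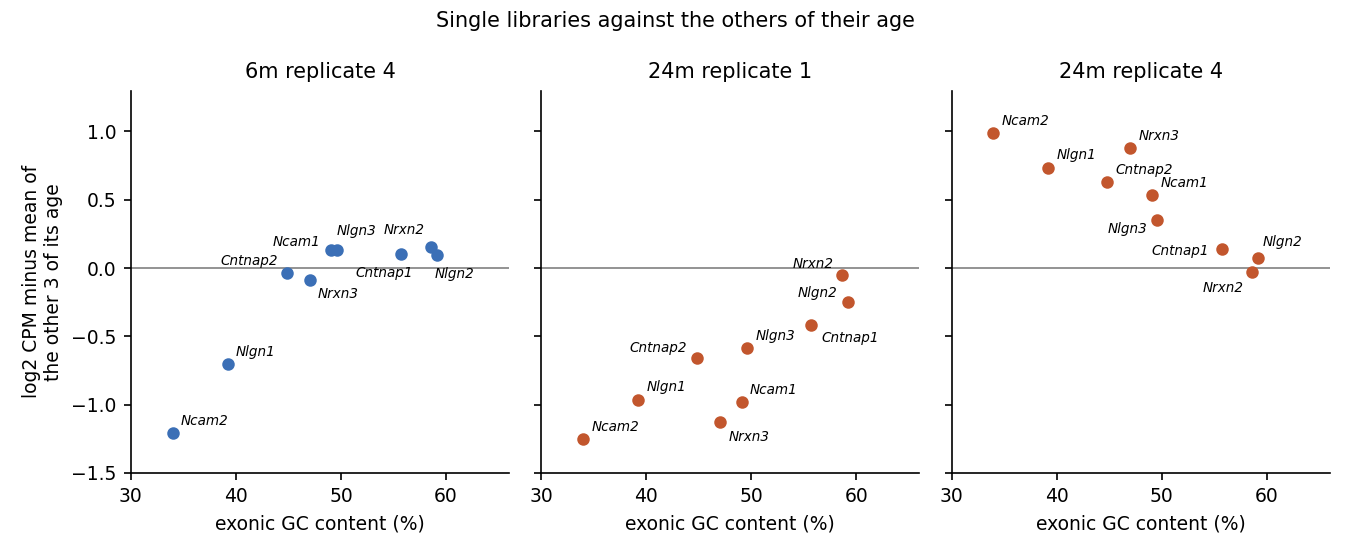
Log2 CPM of each gene in 1 library minus the mean of the other 3 libraries of its age, against exonic GC content in percent, for 6m replicate 4, 24m replicate 1 and 24m replicate 4. Genes poor in GC, led by Ncam2 (34.0%), fall to -1.21 and -1.26 in the first and second panels and rise to 0.99 in the last.

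Fold changes with age also moved with gene length over the whole table, with a Spearman's rho across 16677 genes of 0.42 for exonic length, 0.43 for genomic span and -0.21 for GC content. When the trend over genomic span was removed from each library, 5 of the 9 genes were called higher, namely Nlgn1, Nlgn2, Nlgn3, Cntnap1 and Ncam2, beside 21.0% of tested genes. The 3 short genes hardly moved, at 1.22 for Nlgn2, 1.09 for Nlgn3 and 0.93 for Cntnap1. The long genes fell to 0.74 in Nlgn1 and 0.88 in Ncam2, and turned direction in Cntnap2 (-0.047), Nrxn2 (-0.046), Ncam1 (-0.39) and Nrxn3 (-0.47). Removing the trend over exonic length gave 0.67 to 1.15 for Nlgn1, Nlgn2, Nlgn3, Cntnap1 and Ncam2, 0.52 for Cntnap2, with -0.021 for Nrxn2, -0.012 for Ncam1 and 0.015 for Nrxn3. Removing the trend over GC content left all 9 above 0, from 0.25 in Ncam1 to 1.44 in Ncam2, and brought Nrxn2 past the fold threshold at 0.66. Such an offset removes any change with age that long genes share, so these values do not say which part of a rise belongs to length.

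**Figure D4:**
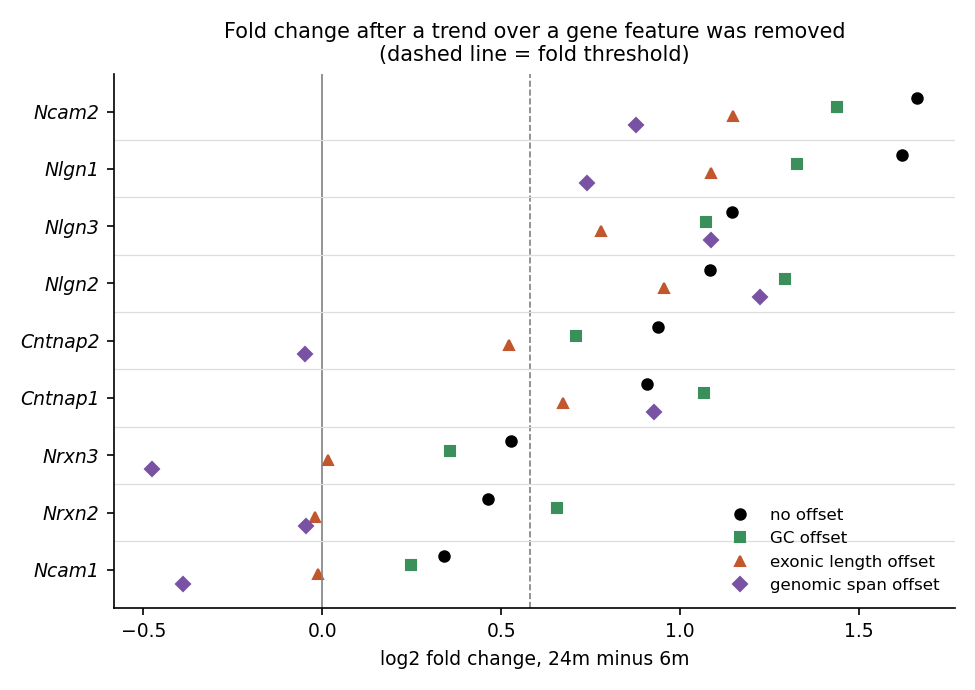
Log2 fold change of each gene, 24m minus 6m, with no offset (black circles) and after removal of a smoothed trend over GC content (green), exonic length (orange) or genomic span (purple) in each library. Nlgn2, Nlgn3, Cntnap1, Nlgn1 and Ncam2 stay right of the threshold line at 0.58 in all 4 settings, and Nrxn3 and Ncam1 drop to -0.47 and -0.39 after the span offset.

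The genes whose profile over the 8 libraries was most like that of each member were found by the root mean square (RMS) difference of centred log2 CPM among 13538 genes. Nlgn2 was closest to Ttyh2 (RMS 0.027 log2 units) and Iqsec2 (0.034), Nlgn1 to Fmnl2 (0.033) and Ankib1 (0.046), and Nlgn3 to Dtx4 (0.045) and Cbx6 (0.050). Nrxn2 was closest to Agpat3 (0.035) and Kirrel3 (0.037), Cntnap1 to Chrna4 (0.038) and Ephb2 (0.039), and Cntnap2 to Rbl2 and Ndc1 (both 0.0505). The least well matched were Nrxn3 with Slc16a7 (0.073) and Arid2 (0.084), Ncam1 with Gnaz (0.077) and Zfyve26 (0.089), and Ncam2 with Shprh (0.116) and Slitrk4 (0.134). Among the 9 genes themselves, Nlgn2 was nearest to Cntnap1 (0.109), Nlgn3 to Nlgn2 (0.128), Nrxn3 to Ncam1 (0.147), Cntnap2 to Nlgn3 (0.16) and Nlgn1 to Ncam2 (0.192), and only the pair of Nlgn3 and Nlgn2 lay within a family. Many genes outside the 9 were closer. The nearest of the 9 ranked between 34 (Nlgn1 for Ncam2) and 2832 (Cntnap1 for Nrxn2, RMS 0.247) among the 13538 genes.

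Partners of the 9 genes were counted in 8 lists of 105 genes, all tested. In these lists 60 genes were called higher, 6 lower and 39 neither, with a median log2 fold change of 0.77, where 25.3% of all tested genes were called higher and 18.3% lower. Without 24m replicate 1 the counts were 65 higher and 5 lower. The count of 60 fell to 37 higher and 20 lower after the span offset and to 39 higher and 10 lower after the exonic length offset, so the partner counts also move with gene length.

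Among 6 relatives of the neurexins and contactin-associated proteins 3 were higher and 1 lower. Cntnap3 went from 1.21 ± 0.25 to 3.03 ± 1.36 CPM (log2 fold change 1.32 ± 0.32, edgeR adjusted p = 0.00531) and Cntnap5b from 1.34 ± 0.23 to 2.61 ± 0.91 CPM (0.96 ± 0.26, edgeR adjusted p = 0.00954). Cntnap5c moved the other way, from 5.80 ± 0.88 to 2.69 ± 0.36 CPM (-1.11 ± 0.15, edgeR adjusted p = 0.000315). The family thus held members that rose and members that fell in the aged brain.

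Of 15 extracellular partners of neurexins 6 were higher, 1 lower and 8 neither. Dag1, which encodes dystroglycan, rose from 12.6 ± 2.72 to 55.8 ± 13.0 CPM (2.14 ± 0.21, edgeR adjusted p = 5.6e-05), and Lrrtm2, a leucine-rich postsynaptic ligand, from 3.00 ± 0.91 to 8.01 ± 2.67 CPM (1.41 ± 0.29, edgeR adjusted p = 0.00242). C1ql3, a secreted C1q-like ligand of neurexin 3, fell from 53.5 ± 3.90 to 29.4 ± 3.07 CPM (-0.86 ± 0.10, edgeR adjusted p = 0.000127). The median log2 fold change of this list was 0.21.

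Inside the cell, 12 of 17 scaffold and adaptor partners of neurexins and neuroligins were higher and 1 lower, with a median of 1.25. Dlg2, which encodes the scaffold PSD-93, rose from 7.76 ± 1.06 to 46.1 ± 18.8 CPM (2.57 ± 0.29, edgeR adjusted p = 0.000117) and Shank1, a postsynaptic density scaffold, from 52.3 ± 2.22 to 241 ± 77.3 CPM (2.21 ± 0.23, edgeR adjusted p = 7.00e-05). Lin7b, an adaptor that binds the neurexin partner Cask, fell from 177 ± 5.18 to 80.6 ± 20.5 CPM (-1.13 ± 0.16, edgeR adjusted p = 0.000309). No aged library of these 3 genes overlapped a young one.

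Of 4 neuroligin antagonists and shedding proteases 2 were higher and 0 lower. Adam10, a protease that sheds neuroligin 1, rose from 5.36 ± 1.69 to 18.6 ± 6.67 CPM (1.79 ± 0.32, edgeR adjusted p = 0.00109), and Mdga1, which blocks neuroligin 2 from binding neurexin, from 12.7 ± 0.56 to 20.5 ± 3.75 CPM (0.70 ± 0.13, edgeR adjusted p = 0.0016).

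Along the axon, 8 of 11 partners of Cntnap1 and Cntnap2 were higher and 1 lower, with a median of 1.01. Kcna2, a potassium channel of the juxtaparanode, rose from 1.74 ± 0.37 to 12.2 ± 7.08 CPM (2.81 ± 0.44, edgeR adjusted p = 0.000533), and Cntn2, the contactin that pairs with the product of Cntnap2, from 40.1 ± 3.13 to 122 ± 18.6 CPM (1.61 ± 0.12, edgeR adjusted p = 2.42e-05). Lgi1, a secreted ligand of Adam22, fell from 117 ± 11.9 to 53.9 ± 2.33 CPM (-1.11 ± 0.090, edgeR adjusted p = 2.77e-05). Beside these axonal genes, 1 of 8 oligodendrocyte markers was higher and 7 were neither, at a summed level of 3426 to 4286 CPM at 6m and 3705 to 4282 CPM at 24m.

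Among 8 partners and modifiers of Ncam1, 5 were higher and 1 lower. Gfra1, a receptor subunit for glial cell line-derived factor, rose from 5.05 ± 1.04 to 19.2 ± 4.32 CPM (1.92 ± 0.20, edgeR adjusted p = 7.43e-05), and St8sia2, a polysialyltransferase, stood at 0.277 ± 0.107 and 0.851 ± 0.323 CPM (1.60 ± 0.37, edgeR adjusted p = 0.00397). Gap43, a growth cone protein, fell from 251 ± 9.97 to 165 ± 13.5 CPM (-0.60 ± 0.082, edgeR adjusted p = 0.000275). Without 24m replicate 1 Gap43 was at -0.54, under the fold threshold.

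In the 35 genes of other synaptic adhesion families 21 were higher and 0 lower, with a median of 0.82. Tenm1, a teneurin, rose from 1.31 ± 0.21 to 6.90 ± 3.59 CPM (2.39 ± 0.40, edgeR adjusted p = 0.000738), and Flrt2, a ligand of latrophilins, from 1.21 ± 0.17 to 4.85 ± 2.13 CPM (2.00 ± 0.34, edgeR adjusted p = 0.000896). Of the 9 splicing regulators of neurexins 3 were higher and 1 lower, with a median of -0.071, a count near the background of 25.3% higher and 18.3% lower over all tested genes. Rbfox2 rose from 12.6 ± 1.05 to 41.3 ± 10.3 CPM (1.71 ± 0.17, edgeR adjusted p = 6.72e-05) and Ptbp2 from 10.3 ± 2.93 to 21.9 ± 4.99 CPM (1.09 ± 0.23, edgeR adjusted p = 0.00274). Nova1 fell from 108 ± 13.7 to 44.2 ± 7.51 CPM (-1.29 ± 0.14, edgeR adjusted p = 7.78e-05). The counts per gene cannot show which isoforms of a neurexin were made.

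**Figure D5:**
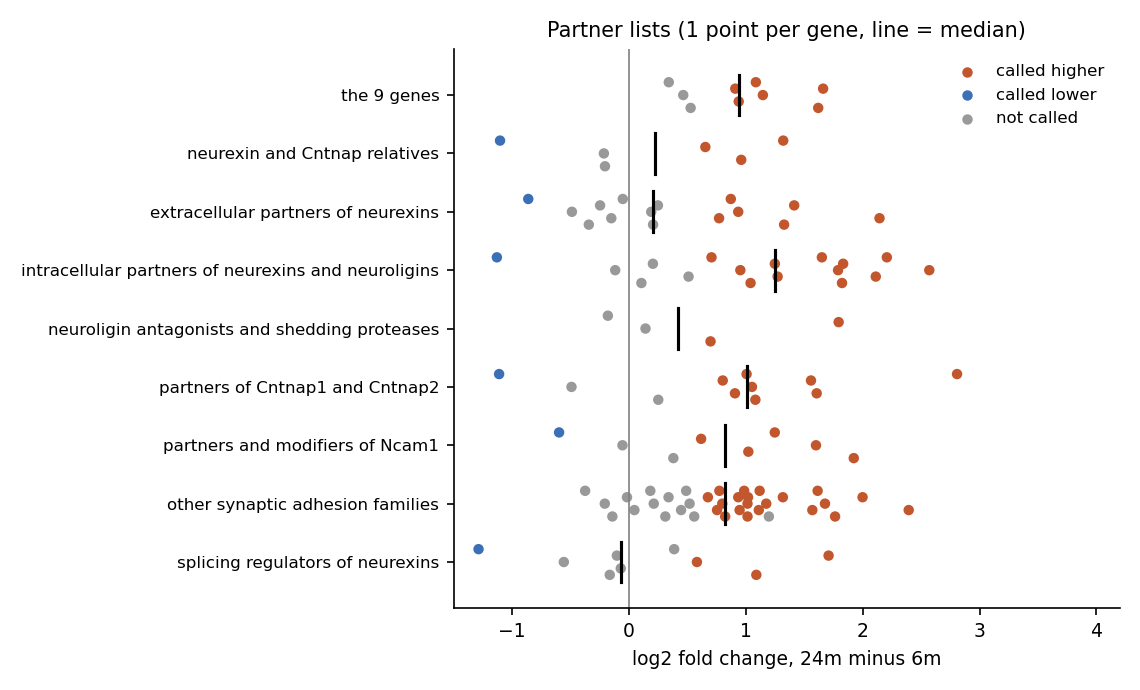
Log2 fold change, 24m minus 6m, of each of the 9 genes (top) and of the 105 partner genes by list, with 1 point per gene, genes called higher in orange, called lower in blue and the others in grey, and the median of each list as a line. The medians of the scaffolds (1.25), the axonal partners (1.01) and the 9 genes (0.94) lie to the right of that of the splicing regulators (-0.071).

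Markers of other cells were counted by the same call rule, under which 25.3% of all tested genes were higher and 18.3% lower. The shares of microglial and endothelial markers called higher were near that background. The summed level of 5 glutamatergic neuron markers was 1432 to 1817 CPM at 6m and 2564 to 2890 CPM at 24m without overlap, with 3 of 5 higher and 0 lower, while that of 6 GABAergic markers was 1460.0 to 1776 and 1363 to 1536 CPM, with 3 higher and 2 lower. The 5 oligodendrocyte precursor markers summed to 33.6 to 36.6 CPM at 6m and 43.1 to 60.2 CPM at 24m, with 2 higher and 1 lower. All 5 erythrocyte markers were lower, with sums of 5426 to 7605 and 1242 to 4156 CPM. Sums overlapped between ages for 8 astrocyte markers (5 higher, 1 lower, 2892 to 3826 and 2847 to 3844 CPM), 8 microglial markers (2 higher, 0 lower, 555 to 619 and 535 to 781 CPM), 7 endothelial markers (2 higher, 1 lower, 42.4 to 59.0 and 28.6 to 48.3 CPM) and 4 choroid plexus markers (2 higher, 0 lower, 1771 to 3192 and 817 to 2247 CPM). Without 24m replicate 1 the choroid plexus markers were 2 higher and 2 lower, with Ttr at -1.07 and Folr1 at -1.24, and the counts of the other lists of this paragraph did not change. No marker was at 0 in the mean of either age, and the part of these markers in the change of the 9 genes was not tested.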

How the data were processed

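The authors selected polyadenylated RNA, made directional libraries and sequenced paired-end reads, trimmed them with Trim Galore 0.4.11, aligned them to GRCm39 with hisat2 2.1.0 and counted them per Ensembl gene with featureCounts, according to the labels and the methods given for the study. The deposited table holds raw counts per gene and library, not normalized or pooled. Whether strand was used in counting is not given in the sources used here. Nrxn2, Nrxn3, Nlgn1, Cntnap1 and Ncam1 share exonic bases with genes of the other strand, so their counts carry that uncertainty.

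The counts were used as deposited. Gene models came from GENCODE vM39, which matched 22281 of 22430 identifiers, and the 149 others held 0.312% of counts. No pair of the 12 replicate pairs agreed within sampling noise (lowest chi-square per degree of freedom 8.43). A gene was tested if at least 4 libraries had more than 5 counts, with edgeR 4.0.16 (R 4.3.3, quasi-likelihood, TMM factors, age as the only term), and adjusted p-values run over all 16730. Depth of 63460940 to 103462414 counts left 71 counts as the lowest member value. Log2 CPM used a prior count of 2. Offsets removed a lowess trend (span 0.3) over GC content or length in each library. Single values were compared by exact permutation of 8 libraries, two-sided. The fit was tested on simulated data.

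All 9 members were named, and in each partner list up to 2 called genes with the largest rises and up to 2 with the largest falls. The members and lists were chosen with earlier results of these data known. The alternatives tried were DESeq2 1.42.0, limma-voom (limma 3.58.1), other scalings and filters, the offsets, thinning, a replicate block and each library left out in turn. The row-median step of the authors' normalization was not run. The values of 1 partner gene are not reported here.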

Additional observations from a re-analysis of the deposited data

Results flagged for a closer look

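Over 32 groups of 4 libraries, 3 held a library far from the other 3 by the 95% limit of Dixon's test, and chance marks about 1 in 20 groups. Nrxn2 in 24m replicate 3 was high at a log2 CPM of 9.52, the nearest other aged library being at 9.43. Cntnap1 in 24m replicate 1 was low at a log2 CPM of 8.06, with the nearest other at 8.46. The log2 ratio of Nlgn1 to Nlgn3 in 6m replicate 4 was low at -2.998, with the nearest other at -2.21. The libraries 24m replicate 1 and 6m replicate 4 are also those in which genes poor in GC were lowest.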

How the results depend on the processing

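Of 400 values recomputed under another setting, 367 kept direction and side of the threshold or, for counts, stayed within 1.5 times the value reported. In all 23 settings no member was called lower, and 5 to 8 were called higher. Nlgn1, Nlgn2, Nlgn3, Cntnap1 and Ncam2 stayed called in all 22 settings of their fold change. With library totals alone, where the median of all genes was 0.21, Nrxn2 (0.68) and Nrxn3 (0.76) passed, with 5449 genes higher and 1746 lower against 4237 and 3058. With quantile normalization and DESeq2 Nrxn2 passed at 0.82, with 3573 higher and 3891 lower, and with the GC offset at 0.66. The exonic length offset turned Nrxn2 (-0.021) and Ncam1 (-0.012), took Cntnap2 to 0.52 and left 39 partners higher and 10 lower. The span offset turned Nrxn2 (-0.046), Nrxn3 (-0.47), Cntnap2 (-0.047) and Ncam1 (-0.39) and left 37 partners higher and 20 lower. By adjusted p alone 4999 genes and 11 partners were lower. The cause was not tested.

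Leaving out each library in turn, Nrxn3 ranged from 0.28 to 0.76, the highest without 24m replicate 1, which alone brought it past the threshold. The log2 ratio of Cntnap2 to Cntnap1 ranged from -0.12 to 0.066, that of Nrxn3 to Nrxn2 from -0.26 to 0.24, that of Nlgn3 to Nlgn2 from -0.026 to 0.13, that of Nlgn1 to Nlgn3 from 0.25 to 0.56 and that of Nlgn1 to Nlgn2 from 0.30 to 0.68. For Ncam2 to Ncam1 the range was 1.02, without 6m replicate 4, to 1.55. The difference in the share of library totals ranged from 0.0714 to 0.0924 percentage points, where 3 against 4 allows no p under 0.0571. With totals scaled by TMM factors and no library left out it was 0.0581. Replicate numbers did not pair the animals (correlations of deviations of 0.271, 0.143, 0.0778 and -0.348), and 1 of the 4 young libraries correlated best with the aged library of its own number. With the replicate block 6 members were called higher, Nrxn3 was at 0.44 and Ncam1 at 0.28, with 4112 genes higher and 3130 lower. Thinned to the smallest library, Nrxn3 was at 0.55, Nlgn1 at 1.63 and Ncam2 at 1.65, with the same calls.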
